A study of Mus musculus with 7 samples.

Results

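The 50 genes described here act in the G2 phase and in mitosis: cyclins and kinases that start division, the checkpoint that delays chromosome separation, and the kinetochore, spindle, condensin and cytokinesis proteins that carry it out. They were chosen by name, and each was found through its Ensembl identifier in the GENCODE mouse release 21 annotation, which placed all 50 among the 55855 genes of the expression table. RNA was sequenced from cells that the labels call hematopoietic stem cells (HSCs) of mouse bone marrow, taken at an age of 2 months. The 3 control libraries carry the genotype Fth1fl/fl, in which the gene for ferritin heavy chain, the iron-storing ferritin subunit that oxidizes iron, is floxed and intact. The 4 Fth1-deleted libraries carry the genotype Fth1△/△, and the series text describes a conditional deletion in the hematopoietic system. The Cre driver, the exons removed, the mice's sex, the surface markers used for sorting and whether each library came from its own mouse are not given in the sources used here. The p-values therefore measure the spread between these libraries, which may in part be technical.

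Most stem cells of adult marrow are quiescent and divide rarely, so RNA of mitotic genes in a stem cell sample comes mainly from the minority of cells in cycle. These genes are switched on together late in the cycle. The MuvB complex binds a short promoter element named CHR (cell cycle genes homology region), first with B-MYB and then with FOXM1 to activate them. In quiescent cells MuvB instead joins the pocket proteins in the DREAM complex, which keeps the same promoters silent. The factor NF-Y binds CCAAT boxes that often lie upstream of the CHR.

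RefSeq promoter windows, from 250 bases before to 50 after each start site on GRCm38.p6, were matched to 42 of the 50 genes by symbol. A CHR (TTTGAA or TTCGAA, either strand) occurred in 34 of these 42 genes, or 81.0%, against 21.7% of all 27025 genes with a window and 16.7% of the 9563 tested genes with one. A CCAAT box (CCAAT, either strand) occurred in 31 of the 42 genes, or 73.8%, against 41.1% of all genes and 43.1% of tested genes. Both were found in 29 of the 42 genes, or 69.0%, against 8.61% and 7.02%. The E2F-type letters TTTCGCGC or TTTGGCGC occurred in 3 of the 42, those of Cdk1, Kif15 and Ncapd2 (7.14%, against 0.929% and 1.83%). In 31 of the 34 genes with a CHR, a copy lay within 50 bases of the start site. The last 40 bases of the window occurred in a GENCODE transcript of the gene for 34 of 45 windows, so some windows may not lie at the start in use. These matches describe the letters and are not evidence of binding.

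A set of 7 windows is shown because their genes carry the results that follow. They are those of Hmmr (chr11:40733388-40733687, minus strand), Cenpa (chr5:30666636-30666935, plus strand), Plk1 (chr7:122159185-122159484, plus strand), Ube2c (chr2:164769679-164769978, plus strand), Cdk1 (chr10:69352863-69353162, minus strand), Top2a (chr11:99024140-99024439, minus strand) and Nuf2 (chr1:169531415-169531714, minus strand). All read 5′ to 3′ along the gene, and capitals mark CHR matches (TTTGAA or TTCGAA, with TTCAAA for the other strand) and CCAAT matches (CCAAT, with ATTGG for the other strand).
Hmmr: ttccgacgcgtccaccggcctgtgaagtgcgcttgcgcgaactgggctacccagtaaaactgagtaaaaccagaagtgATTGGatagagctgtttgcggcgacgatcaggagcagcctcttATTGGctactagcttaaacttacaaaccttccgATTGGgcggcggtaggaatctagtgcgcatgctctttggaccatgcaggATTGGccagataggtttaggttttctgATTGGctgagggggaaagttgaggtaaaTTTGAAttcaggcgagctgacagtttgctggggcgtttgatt
Cenpa: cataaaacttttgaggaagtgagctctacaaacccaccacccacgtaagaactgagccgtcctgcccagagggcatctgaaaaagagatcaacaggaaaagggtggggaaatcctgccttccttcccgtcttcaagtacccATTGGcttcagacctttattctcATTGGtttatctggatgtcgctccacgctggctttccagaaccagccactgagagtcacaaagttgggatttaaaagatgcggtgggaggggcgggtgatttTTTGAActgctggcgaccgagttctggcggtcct
Plk1: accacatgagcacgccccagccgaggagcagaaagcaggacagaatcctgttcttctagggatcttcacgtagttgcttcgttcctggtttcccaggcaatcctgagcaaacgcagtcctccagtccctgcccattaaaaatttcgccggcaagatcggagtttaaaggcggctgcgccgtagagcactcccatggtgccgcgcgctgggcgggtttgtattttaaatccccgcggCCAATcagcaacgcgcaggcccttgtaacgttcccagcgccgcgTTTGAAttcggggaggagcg
Ube2c: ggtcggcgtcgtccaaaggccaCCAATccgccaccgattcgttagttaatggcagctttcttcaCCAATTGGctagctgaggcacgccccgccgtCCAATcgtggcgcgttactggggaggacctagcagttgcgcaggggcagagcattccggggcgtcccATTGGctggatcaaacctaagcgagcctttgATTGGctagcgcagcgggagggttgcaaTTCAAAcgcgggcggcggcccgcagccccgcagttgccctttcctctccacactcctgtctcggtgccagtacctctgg
Cdk1: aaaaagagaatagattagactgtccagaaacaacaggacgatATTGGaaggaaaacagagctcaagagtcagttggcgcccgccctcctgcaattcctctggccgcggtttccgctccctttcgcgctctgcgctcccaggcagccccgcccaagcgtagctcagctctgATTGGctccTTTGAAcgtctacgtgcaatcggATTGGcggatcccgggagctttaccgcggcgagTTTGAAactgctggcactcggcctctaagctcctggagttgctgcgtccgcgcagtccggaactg
Top2a: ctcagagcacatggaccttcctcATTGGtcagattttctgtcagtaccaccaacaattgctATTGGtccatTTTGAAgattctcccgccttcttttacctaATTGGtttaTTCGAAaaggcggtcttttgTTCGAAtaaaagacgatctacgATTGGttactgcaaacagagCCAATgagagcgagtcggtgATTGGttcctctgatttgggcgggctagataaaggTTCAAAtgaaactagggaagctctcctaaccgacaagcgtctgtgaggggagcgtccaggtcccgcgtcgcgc
Nuf2: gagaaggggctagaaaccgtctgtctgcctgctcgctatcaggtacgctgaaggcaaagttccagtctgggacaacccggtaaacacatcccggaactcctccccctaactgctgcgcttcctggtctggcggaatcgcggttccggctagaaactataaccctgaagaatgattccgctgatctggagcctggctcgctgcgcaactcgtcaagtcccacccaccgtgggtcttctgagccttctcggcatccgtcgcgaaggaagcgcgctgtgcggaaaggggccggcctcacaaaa
The Hmmr window holds 5 CCAAT boxes upstream of 1 CHR, which begins 8 bases after the start site. In Ube2c, where the run CCAATTGG gives overlapping boxes on the 2 strands, 6 CCAAT boxes precede 1 CHR. The Top2a window has the most matches of the 7, with 6 CCAAT boxes and 4 CHRs. Nuf2 has neither element in its window.

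**Figure D1:**
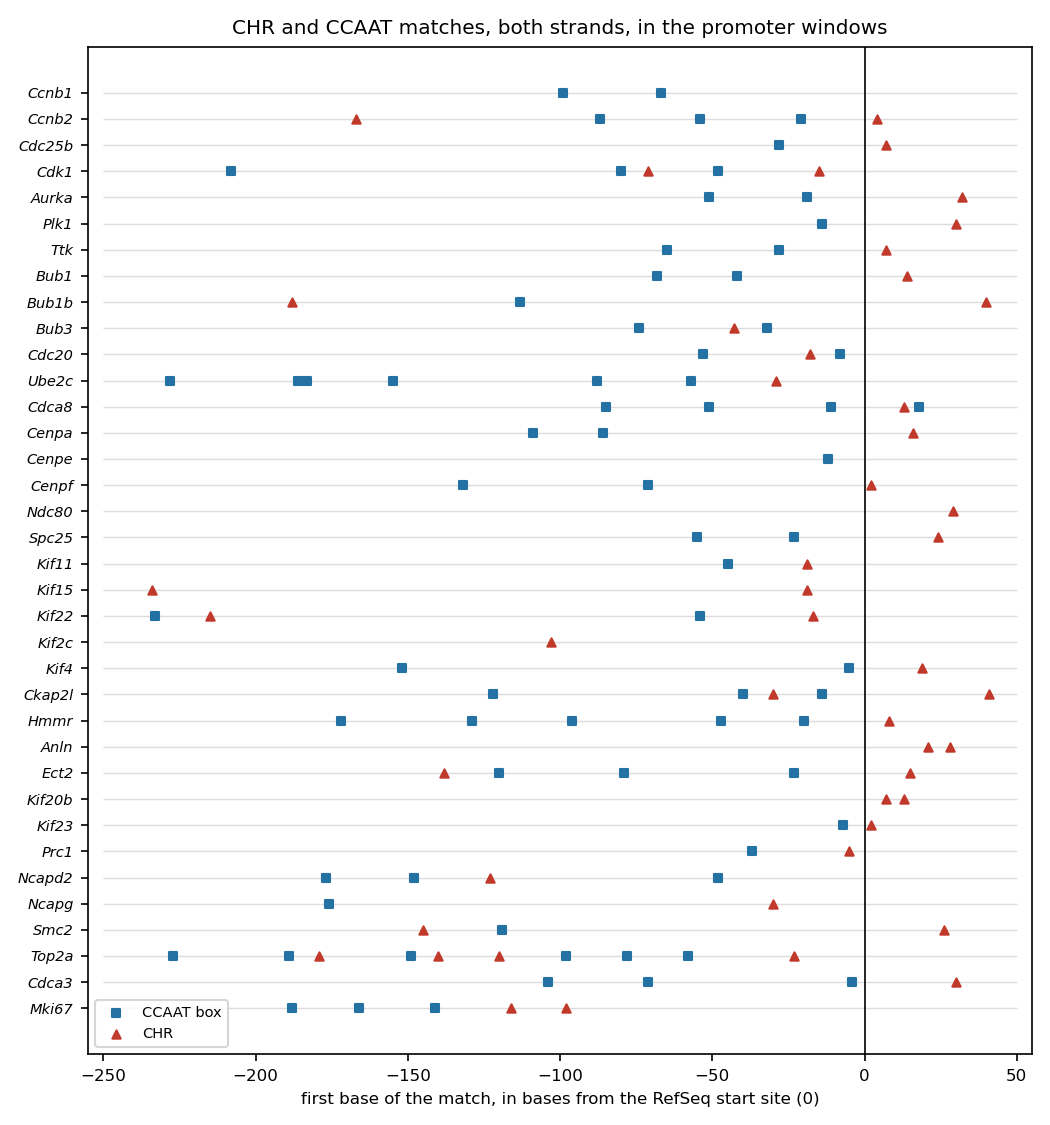
Positions of CHR matches (triangles) and CCAAT boxes (squares) on either strand in the promoter windows of the 36 genes with at least 1 match, grouped by role (the first window of Bub3, Ect2 and Prc1, which have more than 1); the x axis gives the first base of the match in bases from the RefSeq start site. The CHR matches gather around the start site, with the CCAAT boxes mostly upstream of them.

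Counted reads, recovered from the values, ranged from 12058840 to 15453777 per library. Fth1 (targeted gene) was at 552, 659 and 638 FPKM in controls and at 202, 333, 358 and 114 FPKM in the Fth1-deleted group. Each deleted library lay below each control, with 40.8% of the control mean remaining (log2 difference -1.42 ± 0.33, limma adjusted p = 0.193; exact permutation p = 0.0286 on FPKM, the smallest the 35 splits allow, and 0.0571 on the log2 scale). The share of reads from ribosomal RNA genes was 0.0253%, 0.984% and 0.0140% in control libraries 1 to 3 and 1.21% to 1.34% in Fth1-deleted libraries (exact permutation p = 0.0286). Reads from Y-linked genes were present in control 2 and Fth1-deleted 1 to 3 and at 0 in control 1, control 3 and Fth1-deleted 4. Xist, the RNA of the inactive X chromosome, was at 142, 2.25 and 42.5 FPKM in controls. In the Fth1-deleted group it was at 1.98, 0, 0 and 89.25 FPKM. It was thus high in the libraries without Y-linked reads, and these were unevenly spread over the groups. All 15 HSC markers examined were detected in both groups, and their summed FPKM was 1005 to 1621 in control and 675 to 934 in Fth1-deleted libraries.

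Across the 50 genes, Fth1-deleted libraries had more mitotic RNA than 2 of the 3 controls, and about as much as the third. None of the 50 passed the adjusted threshold of 0.05 in either direction, where 0.0287% of the 13948 tested genes did so upward and 0.0287% downward (limma, Benjamini-Hochberg). At an unadjusted p under 0.05, 19 of 50 (38%) were higher and 0 lower, against 4.9% and 4.93% of tested genes. In 12 of 50 (24%) every Fth1-deleted library lay above every control, against 4.1% of tested genes, and in 0 did every one lie below, against 5.55%. On the log2(FPKM + 1) scale, the Fth1-deleted mean less the control mean (the log2 difference) was above 0 in 47 of 50 (94%), against 48.7%. That count was 45 after rescaling to a fixed sum per library (TPM), 48 after quantile normalization and 41 without control 2. The median log2 difference was 0.56 over the 50 genes, with a range of -0.35 to 1.60, and -0.02 over all tested genes. The fold on mean FPKM exceeded 1.5 in 23 genes and 2 in 4 genes, and the share of all tested genes past these folds is not given. In bulk RNA, more dividing cells and more mitotic RNA per cell cannot be told apart.

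**Figure D2:**
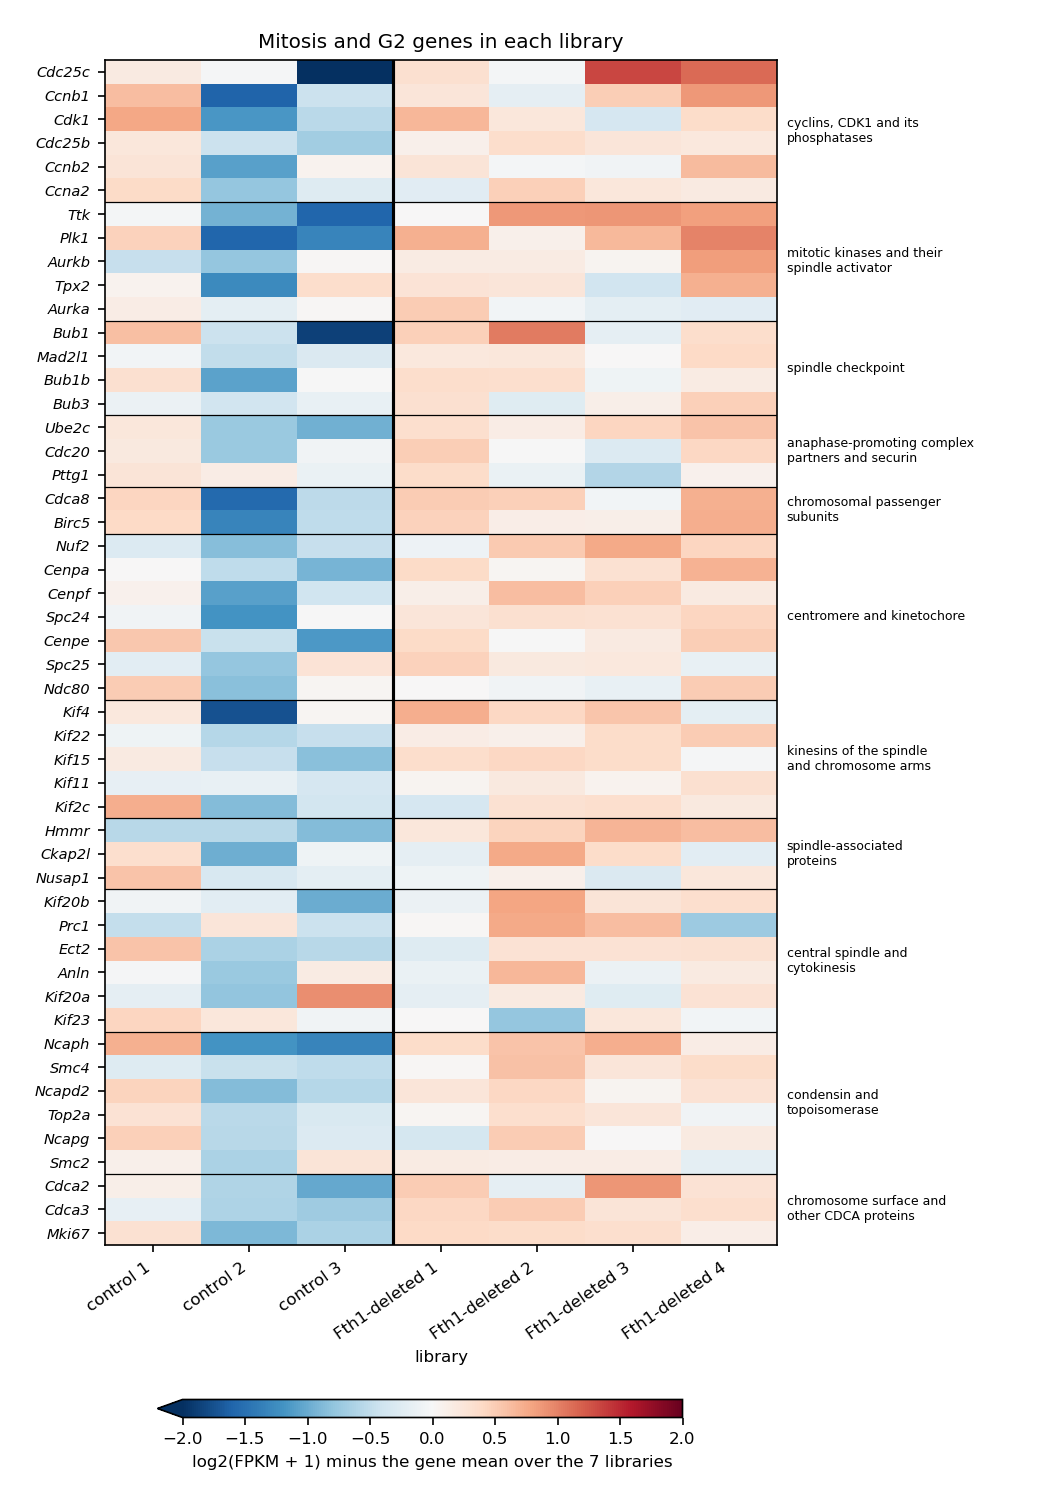
Each of the 50 genes (rows, grouped by role) in each library (columns, controls left of the line), coloured by log2(FPKM + 1) minus the gene's mean over the 7 libraries; the value of Cdc25c in control 3 lies below the colour scale. Control 2 and control 3 are blue in most genes, while control 1 resembles the 4 Fth1-deleted libraries.

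The control libraries were far from alike in these genes. Control 2 was the lowest of all 7 libraries in 31 genes and lay below the whole Fth1-deleted range in 45. Control 3 was the lowest in 15 and lay below that range in 32. Control 1 was the lowest in 0 genes. It lay within the Fth1-deleted range in 30, below it in 13 and above it in 7. The same counts over all tested genes are not given. The mean log2(FPKM + 1) of the 50 genes was 5.47, 4.57 and 4.82 in control libraries 1 to 3 and 5.49, 5.56, 5.5 and 5.61 in Fth1-deleted libraries 1 to 4. Over all tested genes the library means ran only from 3.91 to 4.03, with control 2 the highest. Set against control 1 alone, the mean of the Fth1-deleted libraries was higher in 25 of 50 genes, with a median log2 difference of 0.05. Against control 2 it was higher in 47, with a median of 0.92, and against control 3 in 43, with a median of 0.66. Of all 13948 tested genes, 6745, 6527 and 6931 were higher against controls 1 to 3, with medians of -0.007, -0.0472 and 0. The median coefficient of variation of the 50 genes was 40.8% between control and 20.46% between Fth1-deleted libraries, where all tested genes gave 38.1% and 32.8%.

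**Figure D3:**
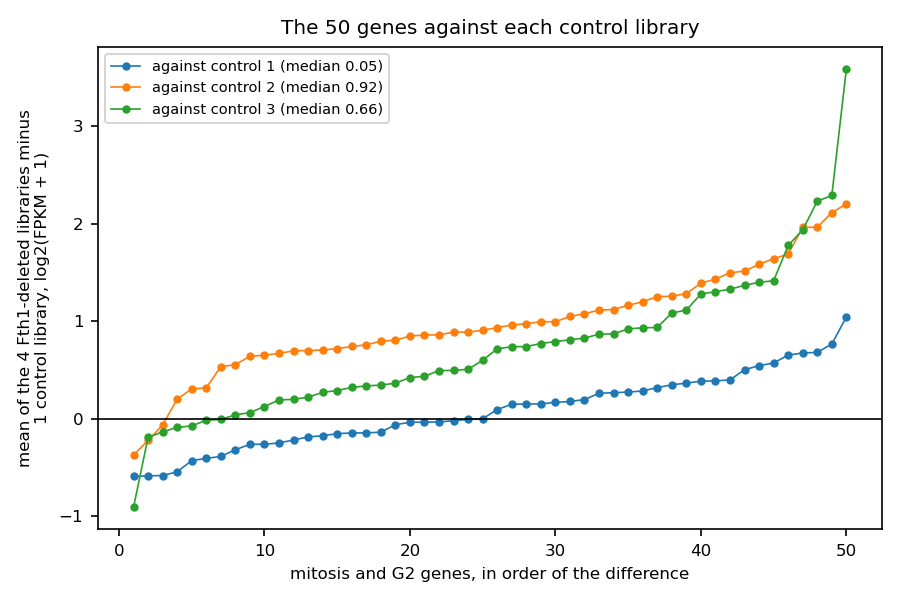
Mean log2(FPKM + 1) of the 4 Fth1-deleted libraries minus that of 1 control library (y axis) for the 50 genes, each curve sorted by its own values (x axis, genes in order). The curve against control 1 crosses 0 midway, with 25 genes above it, while 47 and 43 genes lie above 0 against control 2 and control 3.

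The size of the group difference depended on which control entered. Without control 1, 31 genes had an unadjusted p under 0.05 and the median was 0.78; without control 2, 11 genes and 0.38; without control 3, 10 genes and 0.52. When only the 5 libraries of high ribosomal RNA share were used, which hold control 2 as the only control, the median was 0.92. The spread of a lone control cannot be estimated, so only the effect size is read from that fit. The 2 libraries with low ribosomal RNA are both controls and allow no comparison. With the ribosomal RNA share as a covariate 23 genes had an unadjusted p under 0.05 and the median was 1.13. With a term for Y-linked reads 23 genes reached that p and the median was 0.73. The share of all tested genes at that p is not given for any of the fits above, so these counts have no background beside them. Over all tested genes the median was -0.015, 0.0016 and -0.032 without controls 1 to 3. It was -0.064 with the ribosomal RNA covariate and -0.040 with the Y-linked term. The summed FPKM of the HSC markers ran in the opposite order among controls, at 1005, 1621 and 1399 in controls 1 to 3, and 13 of the 15 had a negative log2 difference. The part of ribosomal RNA share, sex-linked reads or cell composition in the mitotic values was not tested beyond these values.

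Markers of other blood cells moved in part with the groups. Summed FPKM of 7 multipotent progenitor markers was 72.5 to 118 in control and 141 to 263 in Fth1-deleted libraries, with Il7r at 0 in all. The sums did not overlap either for 6 macrophage markers (22.2 to 45.7 and 63.0 to 156; Adgre1 at 0 in control) or 6 mast cell and basophil markers (0 to 12.9 and 17.3 to 44.4; Mcpt8 at 0 in all). They overlapped for 10 neutrophil and monocyte precursor markers (283 to 562 and 276 to 706; Elane, Ctsg and Fcgr3 at 0 in control). Of these 10, 8 had positive log2 differences, and the sum was mostly Prtn3 (212 ± 92.7 FPKM in controls and 202 ± 77.2 FPKM in the Fth1-deleted group) and Lyz2 (164 ± 36.7 FPKM in controls and 124 ± 19.5 FPKM in the Fth1-deleted group). Mpo, the myeloperoxidase of myeloid precursors, was at 2.33, 3.63 and 0.255 FPKM in controls and at 23.4, 15.4, 84.2 and 135 FPKM in the Fth1-deleted group. Every Fth1-deleted library lay above every control (log2 difference 4.11 ± 0.72, limma adjusted p = 0.0803). Sums also overlapped for 10 erythroid markers (273 to 822 and 232 to 780) and 7 megakaryocyte markers (654 to 1061 and 1034 to 1224). All 7 B cell markers had positive log2 differences, with sums of 12.1 to 26.2 in control and 24.3 to 87.8 in Fth1-deleted libraries; Vpreb1, Igll1 and Ebf1 were among those at 0 in control. Vpreb1, which is made in early B lineage cells, was at 0 in each control and at 4.06, 9.71, 29.5 and 31.8 FPKM in the Fth1-deleted group (limma adjusted p = 0.0918). T cell markers (6 genes) summed to 4.86 to 8.96 and 0 to 24.3, with Cd3e at 0 in all and Cd3d, Cd3g and Cd8a at 0 in control. Among controls the erythroid sum was highest in control 1 (822, against 311 and 273), the control with the most mitotic RNA. So were the megakaryocyte, macrophage and mast cell and basophil sums, while the multipotent progenitor, neutrophil and monocyte, B cell and T cell sums were not. Fth1-deleted 2 had the lowest erythroid sum of all libraries (232), with a mean log2(FPKM + 1) of 5.56 over the 50 genes, against 5.47 in control 1. None of these 8 lists had a member past the threshold (limma), and their part in the mitotic values was not tested.

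In the values by gene below, controls are given in the order 1 to 3 and Fth1-deleted libraries in the order 1 to 4; ± after a log2 difference is the standard error from limma, and ± after a mean is the SD (n = 3 control, n = 4 Fth1-deleted).

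The 6 genes of the CDK1 engine, the cyclin-dependent kinase that drives entry into mitosis, all had positive log2 differences (median 0.53), but 0 of 6 reached an unadjusted p under 0.05. Cdk1 itself (ENSMUSG00000019942, chromosome 10, 69335146 to 69352938, minus strand) was at 109, 27.7 and 43.1 FPKM in controls and at 101, 74, 49.7 and 81.6 FPKM in the Fth1-deleted group. Control 1 was the highest of the 7 libraries, while controls 2 and 3 lay below every Fth1-deleted library (log2 difference 0.54 ± 0.40, limma adjusted p = 0.688). Ccnb1, which encodes the cyclin that activates CDK1 at the G2/M boundary, was at 66, 13.3 and 31.2 FPKM in controls and at 50.3, 37.6, 60.6 and 78.3 FPKM in the Fth1-deleted group. Control 1 exceeded 3 of the 4 Fth1-deleted libraries here as well (log2 difference 0.83 ± 0.44, limma adjusted p = 0.584). Ccnb1 counts are uncertain, since 42.1% of the 50-base stretches of its longest transcript also occur in other genes, chiefly the pseudogene Ccnb1-ps. Ccnb2, a second mitotic cyclin, and Ccna2, the cyclin of S phase and G2, had log2 differences of 0.45 ± 0.34 and 0.38 ± 0.30. The phosphatases that remove the inhibitory phosphates of CDK1 were Cdc25b, at 34.5 ± 12.3 FPKM in controls and 48.2 ± 3.46 FPKM in the Fth1-deleted group, and Cdc25c. Cdc25c was at 7.51, 6.4 and 0 FPKM in controls and at 8.38, 6.27, 17.9 and 15.3 FPKM in the Fth1-deleted group. It was the lowest of the 50 by FPKM, its groups overlapped, and the 0 in control 3 allows up to 0.180 FPKM, worth 3 reads (log2 difference 1.6 ± 0.74, limma adjusted p = 0.513); 22.2% of its 50-base stretches occur in other genes.

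Of the 5 mitotic kinases and their activator, 3 had an unadjusted p under 0.05, and 2 of these had groups that did not overlap. Plk1 encodes the polo-like kinase that matures centrosomes and helps switch on CDK1 (ENSMUSG00000030867, chromosome 7, 122159439 to 122169873, plus strand). It was at 49.3, 11.1 and 13.6 FPKM in controls and at 59, 37.9, 56.2 and 71.4 FPKM in the Fth1-deleted group. Controls 2 and 3 were far below the rest, and control 1 lay above Fth1-deleted 2 (2.28-fold on mean FPKM, log2 difference 1.43 ± 0.44, limma adjusted p = 0.339). A pseudogene, Plk-ps1, and other genes share 10.9% of its 50-base stretches. Ttk, the MPS1 kinase that starts the spindle checkpoint, was at 9.41, 4.57 and 2.55 FPKM in controls and at 9.79, 18.4, 18.6 and 17.8 FPKM in the Fth1-deleted group. All Fth1-deleted libraries lay above the controls, Fth1-deleted 1 only just (2.93-fold, log2 difference 1.5 ± 0.48, limma adjusted p = 0.36). Aurkb, the Aurora kinase of the chromosomal passenger complex, was at 56.6, 45.4 and 79.2 FPKM in controls and at 88.2, 87.5, 81 and 141 FPKM in the Fth1-deleted group. Its groups did not overlap either, although control 3 lay just below Fth1-deleted 3, and Fth1-deleted 4 stood well above the others (log2 difference 0.71 ± 0.26, limma adjusted p = 0.426). Aurka, the centrosomal Aurora kinase, was at 37.3, 29.1 and 33.8 FPKM in controls and at 48.1, 32.1, 29 and 28.4 FPKM in the Fth1-deleted group. Its groups were interleaved (log2 difference 0.01 ± 0.28, limma adjusted p = 0.989, and -0.0611 as TPM), and its spindle activator Tpx2 had a log2 difference of 0.50 ± 0.39.

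The spindle checkpoint, which holds back anaphase until every chromosome is attached, had 4 genes with positive differences and 0 with an unadjusted p under 0.05. Bub1, a kinase that gathers checkpoint proteins at the kinetochore, was at 43.4, 20.8 and 7.03 FPKM in controls and at 39.7, 59.2, 24.9 and 36.6 FPKM in the Fth1-deleted group. Control 3 was by far the lowest, while control 1 exceeded 3 of the 4 Fth1-deleted libraries (log2 difference 0.99 ± 0.50, limma adjusted p = 0.558). Bub3, the partner that anchors BUB1 and BUBR1, was at 58, 47.9 and 56.5 FPKM in controls and at 78.8, 52.9, 68.4 and 87.7 FPKM in the Fth1-deleted group. Of the Fth1-deleted libraries 3 lay above all controls, and Fth1-deleted 2 fell among them (log2 difference 0.38 ± 0.23, limma adjusted p = 0.625). Mad2l1, which encodes the MAD2 inhibitor of CDC20, was at 22.4 ± 3.48 FPKM in controls and 31.9 ± 3.7 FPKM in the Fth1-deleted group, without overlap of the groups. Bub1b, encoding BUBR1, was at 88.4 ± 39 FPKM in controls and 112 ± 15.2 FPKM in the Fth1-deleted group.

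Among the 3 genes that act with the anaphase-promoting complex, Ube2c, its ubiquitin-conjugating enzyme, was at 56.4, 28.3 and 24.4 FPKM in controls and at 61.1, 53.6, 65.6 and 72 FPKM in the Fth1-deleted group. Only control 1 reached into the Fth1-deleted range, above Fth1-deleted 2 (1.73-fold, log2 difference 0.87 ± 0.29, limma adjusted p = 0.385). Tnnc2 overlaps 22.8% of the exon bases of Ube2c on the opposite strand, and whether counting used strand is not stated. Cdc20, the activator of the complex, had a log2 difference of 0.36 ± 0.26. Pttg1, which encodes securin, the inhibitor of separase, was at 27.3 ± 3.76 FPKM in controls and 24.9 ± 6.91 FPKM in the Fth1-deleted group, a log2 difference of -0.16 ± 0.31.

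The chromosomal passenger complex places Aurora B first at centromeres and then at the cell middle. Its subunit gene Cdca8, encoding borealin, was at 91.7, 22.4 and 46.8 FPKM in controls and at 97.2, 94.2, 64.8 and 112 FPKM in the Fth1-deleted group. Controls 2 and 3 lay below every Fth1-deleted library, and control 1 lay above Fth1-deleted 3 (log2 difference 0.96 ± 0.39, limma adjusted p = 0.451). Birc5, encoding survivin, was at 21.3 ± 13 FPKM in controls and 35.1 ± 7.44 FPKM in the Fth1-deleted group, a log2 difference of 0.84 ± 0.39.

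The 7 centromere and kinetochore genes had a median log2 difference of 0.75, with 4 at an unadjusted p under 0.05, and in these same 4 genes the groups did not overlap. Cenpa encodes the histone H3 variant that marks centromeres (ENSMUSG00000029177, chromosome 5, 30666777 to 30674830, plus strand). It was at 101, 70.4 and 52.4 FPKM in controls and at 131, 103, 124 and 164 FPKM in the Fth1-deleted group. Control 1 came within a few FPKM of Fth1-deleted 2, the lowest of its group, while controls 2 and 3 lay well below (1.75-fold, log2 difference 0.83 ± 0.25, limma adjusted p = 0.321). Nuf2 and Spc24 encode subunits of the NDC80 complex, which grips microtubules. Nuf2 was at 17.3, 11.2 and 15 FPKM in controls and at 19.6, 30.7, 36.3 and 28.7 FPKM in the Fth1-deleted group. Its Fth1-deleted libraries were all higher, Fth1-deleted 1 by the least (log2 difference 0.93 ± 0.33, limma adjusted p = 0.40). Spc24 was at 65.2, 29.5 and 68 FPKM in controls and at 81.5, 85.9, 84.8 and 92.7 FPKM in the Fth1-deleted group. The Fth1-deleted values lay close together above controls 1 and 3, and control 2 was lowest (log2 difference 0.75 ± 0.28, limma adjusted p = 0.435). Cenpf, a large protein of the outer kinetochore, was at 25.4, 10.8 and 18 FPKM in controls and at 26.1, 37.4, 33.5 and 27.3 FPKM in the Fth1-deleted group. Control 1 lay just under Fth1-deleted 1 and control 2 was lowest (log2 difference 0.81 ± 0.34, limma adjusted p = 0.467). The other NDC80 subunits gave smaller differences: Spc25 had 0.42 ± 0.30 and Ndc80 0.17 ± 0.42. Cenpe, the kinetochore kinesin, had 0.62 ± 0.36.

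The 5 kinesins of the spindle and chromosome arms all had positive differences, with a median of 0.65. Kif22, which pushes chromosome arms away from the poles, was at 69.6, 49.2 and 53.5 FPKM in controls and at 81.8, 79.4, 95.4 and 105 FPKM in the Fth1-deleted group. All Fth1-deleted libraries were higher than all controls (1.57-fold, log2 difference 0.65 ± 0.21, limma adjusted p = 0.377). Kif15, which helps keep spindle poles apart, was at 43.7, 27.5 and 21 FPKM in controls and at 49.1, 51.6, 49.6 and 37.6 FPKM in the Fth1-deleted group. Control 1 lay above Fth1-deleted 4, and controls 2 and 3 below all Fth1-deleted libraries (log2 difference 0.65 ± 0.29, limma adjusted p = 0.494). Kif11, the main motor that separates the poles, was at 27.5 ± 2.05 FPKM in controls and 35.9 ± 3.16 FPKM in the Fth1-deleted group; the groups did not overlap, by a narrow margin (0.37 ± 0.25). Kif4, the chromokinesin of chromosome arms, had 0.87 ± 0.49, with 16.2% of its 50-base stretches shared with other genes, chiefly Pdzd11. Kif2c, which takes microtubules apart at centromeres, had 0.30 ± 0.37, and -0.0513 without control 2.

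Among the 3 spindle-associated genes, Hmmr had the smallest p of all 50. It encodes a hyaluronan-binding protein that also organizes spindle poles (ENSMUSG00000020330, chromosome 11, 40701395 to 40733422, minus strand). Hmmr was at 14.6, 14.5 and 11.4 FPKM in controls and at 25.7, 30.1, 35.6 and 33.8 FPKM in the Fth1-deleted group. Every Fth1-deleted library was well above every control, and the controls were close together, unlike in most of the 50 genes (2.32-fold, log2 difference 1.15 ± 0.29, limma adjusted p = 0.234). Ckap2l, a spindle microtubule protein, was at 15.8 ± 7.03 FPKM in controls and 21 ± 7.21 FPKM in the Fth1-deleted group. Nusap1, which bundles microtubules near chromosomes, was at 35.1 ± 13.1 FPKM in controls and 33.3 ± 5.29 FPKM in the Fth1-deleted group, with a log2 difference of -0.03 ± 0.29 (0.0057 after quantile normalization).

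The central spindle and cytokinesis genes, which build the midzone and split the cell, had a median log2 difference of 0.36, and in 0 of 6 were the groups apart. Kif20b, a kinesin of late cytokinesis, was at 28.3, 25.4 and 14.5 FPKM in controls and at 27.2, 52.3, 35.7 and 37.7 FPKM in the Fth1-deleted group. Fth1-deleted 2 stood highest, control 3 lowest, and control 1 lay above Fth1-deleted 1 (log2 difference 0.74 ± 0.32, limma adjusted p = 0.489). Prc1, which crosslinks midzone microtubules, was at 23.1 ± 7.11 FPKM in controls and 32.3 ± 13.7 FPKM in the Fth1-deleted group. Ect2, the exchange factor that activates RhoA at the cell middle, was at 13.4 ± 7.29 FPKM in controls and 16.4 ± 3.05 FPKM in the Fth1-deleted group, and Anln, encoding the contractile ring scaffold anillin, at 24.5 ± 7.64 FPKM in controls and 31.2 ± 9.0 FPKM in the Fth1-deleted group. Kif20a, a midzone kinesin, had 0.03 ± 0.43 (-0.0437 as TPM); 31.2% of its 50-base stretches also occur in other genes, chiefly Cdc23 on the opposite strand. Kif23, a motor of the centralspindlin complex, had the lowest difference of all 50 genes, at 53.5 ± 9.49 FPKM in controls and 42.8 ± 11.6 FPKM in the Fth1-deleted group (-0.35 ± 0.28).

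Condensin compacts mitotic chromosomes and topoisomerase II untangles them. Smc4, a core ATPase of both condensins, was at 80.9, 71 and 68.4 FPKM in controls and at 99.4, 147, 115 and 126 FPKM in the Fth1-deleted group. The groups did not overlap and the controls varied little (1.66-fold, log2 difference 0.71 ± 0.20, limma adjusted p = 0.289). Ncaph, the kleisin subunit of condensin I, was at 58.8, 15.1 and 13.7 FPKM in controls and at 46.2, 53.5, 59.9 and 39.7 FPKM in the Fth1-deleted group. Controls 2 and 3 were far lower than the other 5 libraries, and control 1 was above 3 of the 4 Fth1-deleted libraries (log2 difference 1.05 ± 0.43, limma adjusted p = 0.462). Ncapd2, another condensin I subunit, was at 423, 171 and 209 FPKM in controls and at 368, 416, 325 and 379.6 FPKM in the Fth1-deleted group. Control 1 was the highest of all 7 libraries (log2 difference 0.58 ± 0.26, limma adjusted p = 0.502). Top2a, the topoisomerase (ENSMUSG00000020914, chromosome 11, 98992943 to 99024189, minus strand), was at 304, 171 and 202 FPKM in controls and at 254, 312, 293 and 237 FPKM in the Fth1-deleted group. Control 1 sat near the top of the Fth1-deleted range, with controls 2 and 3 below all Fth1-deleted libraries (log2 difference 0.32 ± 0.21, limma adjusted p = 0.66). Top2a had the highest level of the 50 when FPKM was rescaled to the longest transcript of each gene, at 82.2, ahead of Cdc20 at 73.0 and Ncapd2 at 70.7. Smc2 and Ncapg had differences of 0.15 ± 0.28 and 0.20 ± 0.36, and of -0.12 and -0.0136 without control 2.

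All 3 of the remaining genes had an unadjusted p under 0.05. Mki67 encodes Ki-67, the coat of mitotic chromosomes used as a marker of dividing cells (ENSMUSG00000031004, chromosome 7, 135689784 to 135716361, minus strand). It was at 120.2, 51.7 and 62.5 FPKM in controls and at 128, 125, 123 and 106 FPKM in the Fth1-deleted group. Control 1 fell inside the narrow Fth1-deleted range, and controls 2 and 3 lay well below it (1.54-fold, log2 difference 0.71 ± 0.27, limma adjusted p = 0.435). Cdca3, a trigger of mitotic entry, was at 47.4, 34.4 and 32.3 FPKM in controls and at 71.2, 76.2, 63.9 and 67.3 FPKM in the Fth1-deleted group. Its groups were well apart (1.83-fold, log2 difference 0.87 ± 0.23, limma adjusted p = 0.239). Cdca2, a chromatin-bound partner of protein phosphatase 1, was at 19.7, 11.6 and 8.4 FPKM in controls and at 26.1, 15.8, 34.2 and 22.4 FPKM in the Fth1-deleted group. Control 1 lay above Fth1-deleted 2, and control 3 was lowest (log2 difference 0.88 ± 0.39, limma adjusted p = 0.49).

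**Figure D4:**
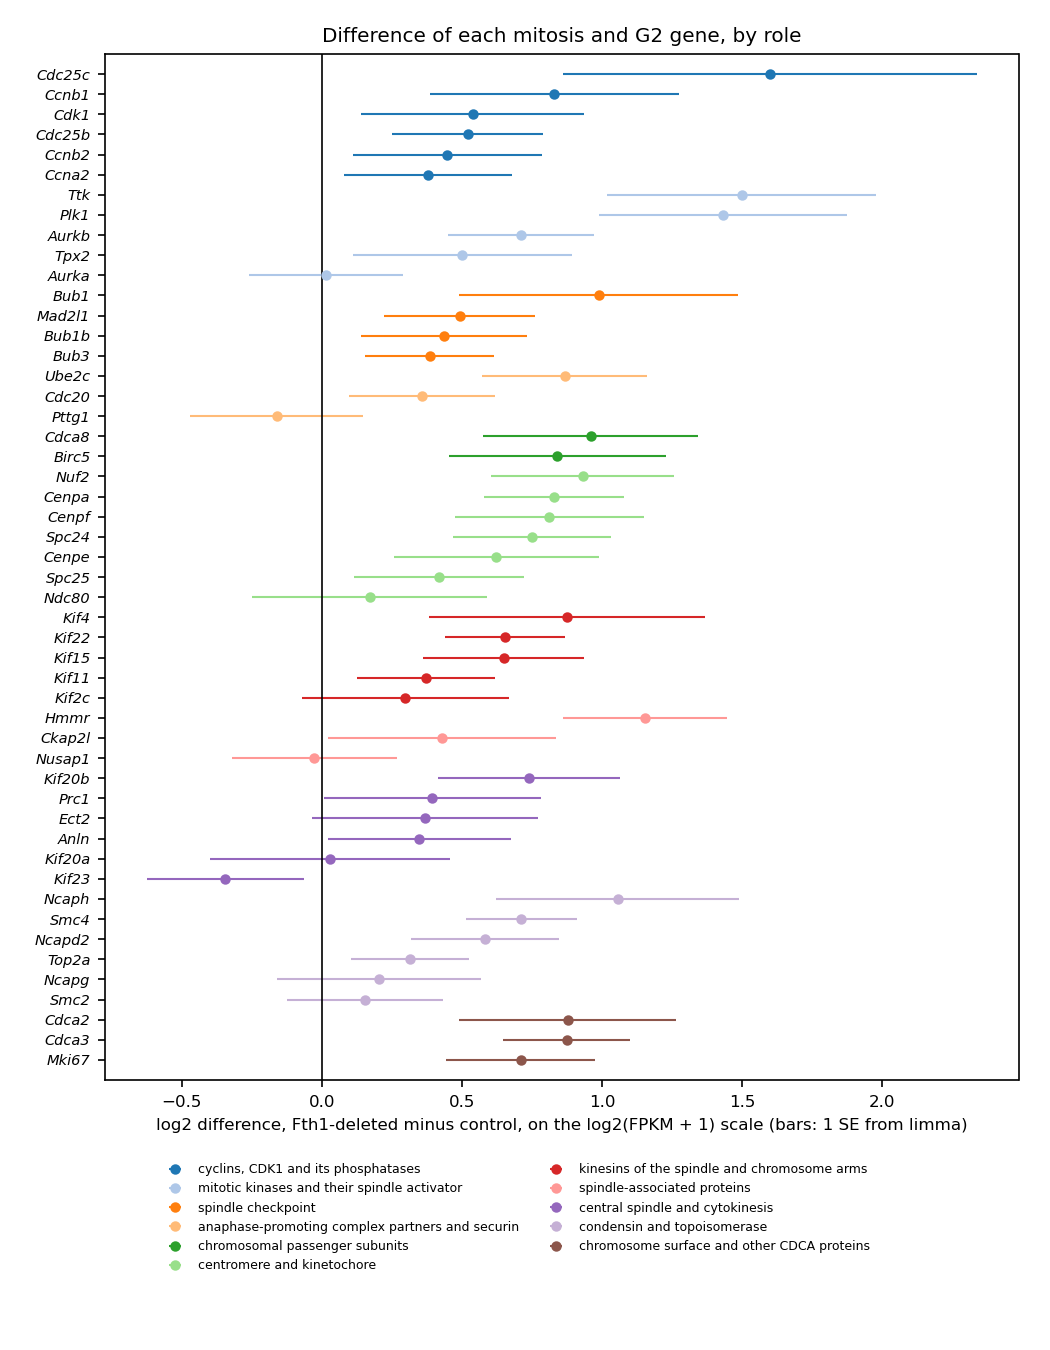
Log2 difference of each of the 50 genes (x axis, Fth1-deleted less control, from log2(FPKM + 1) values), by role; bars are 1 SE from limma. Of the 50 points 47 lie right of 0, and Kif23, Pttg1 and Nusap1 lie left of it (Nusap1 at 0.0057 after quantile normalization).

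Group differences were also set beside the promoter elements. The 34 genes with a CHR had a median log2 difference of 0.48, with a range of -0.35 to 1.5. The 8 genes whose window has no CHR had a median of 0.73, with a range of -0.16 to 1.06; Nuf2 and Ncaph are among them. Outside the 50 genes, the 642 tested genes with both a CHR and a CCAAT box had a median of 0.02, and 51.9% were above 0, against -0.02 and 47.9% of those without both. No test was made of these medians, and some windows may not hold the start site in use.

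The regulators of these promoters were read from a list of 19 MuvB, MYB-FOXM1 and DREAM genes, with 0 past the adjusted threshold (limma). Of these, 13 had positive differences, 4 an unadjusted p under 0.05 upward and 1 downward, against 48.7%, 4.9% and 4.93% of all tested genes. Mybl2, which encodes B-MYB, was at 75.2, 36 and 37.2 FPKM in controls and at 102, 89.4, 68.7 and 74.9 FPKM in the Fth1-deleted group. Control 1 lay above Fth1-deleted 3 and 4, and controls 2 and 3 below all Fth1-deleted libraries (log2 difference 0.82 ± 0.28, limma adjusted p = 0.392). Foxm1 was at 61.4, 21.4 and 40.6 FPKM in controls and at 51.4, 69.6, 62.5 and 56 FPKM in the Fth1-deleted group. Control 1 again fell inside the Fth1-deleted range, with control 2 lowest (log2 difference 0.64 ± 0.32, limma adjusted p = 0.545). Rbl2, encoding the pocket protein p130 of the quiescent DREAM complex, was at 42.8, 60.2 and 71.4 FPKM in controls and at 28.1, 21.2, 44.6 and 29.9 FPKM in the Fth1-deleted group. Here control 1 lay below Fth1-deleted 3, and controls 2 and 3 lay above every Fth1-deleted library (log2 difference -0.91 ± 0.30, limma adjusted p = 0.377).

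Other lists of the cell cycle gave the following counts, each with 0 genes past the adjusted threshold (limma). Of all tested genes, 48.7% had positive differences, 4.9% an unadjusted p under 0.05 upward and 4.93% downward. Of 43 other G2 and mitosis genes, 40 had positive differences (median 0.48), 13 an unadjusted p under 0.05 upward and 1 downward. Among them Hmgb2, a chromatin protein abundant in dividing cells, was at 256 ± 65.5 FPKM in controls and 415 ± 27.4 FPKM in the Fth1-deleted group, and Cks2, a CDK-binding protein, at 73.3 ± 46.3 FPKM in controls and 138 ± 10.1 FPKM in the Fth1-deleted group. Of 32 other kinetochore and centromere subunits, 27 were positive (median 0.57) and 5 had an unadjusted p under 0.05, Cenph and Ska3 with the smallest (1.5 ± 0.50 and 0.89 ± 0.34). Of 39 tested DNA replication genes, which act before mitosis in S phase, 35 were positive (median 0.42) and 12 had an unadjusted p under 0.05. Rrm2, a subunit of ribonucleotide reductase, was at 72.5, 56 and 54.8 FPKM in controls and at 124, 113, 138 and 147 FPKM in the Fth1-deleted group. Its groups were widely apart (log2 difference 1.09 ± 0.20, limma adjusted p = 0.0918), and Mcm10, an origin-firing factor, had 1.74 ± 0.50. The lists above also depended on the control. Against control 1 alone the Fth1-deleted mean was higher in 24 of 43 other G2 and mitosis genes (median 0.12). It was higher in 18 of 32 kinetochore and centromere subunits (0.016) and 28 of 39 replication genes (0.15). Against control 2 these counts were 38, 25 and 32, and against control 3 they were 34, 23 and 28. Of all 13948 tested genes, 6745, 6527 and 6931 were higher against controls 1 to 3.

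The last 3 lists cover the anaphase-promoting complex that triggers chromosome separation, the cohesin rings it releases, and the enzymes that time mitotic entry. The anaphase-promoting complex list held 18 genes: subunits, inhibitors and the ubiquitin-conjugating enzyme gene Ube2s. Of these, 9 were positive and 9 negative, with a median of 0.02 and 0 at an unadjusted p under 0.05. Ube2s and Anapc15 had the smallest p (0.42 ± 0.20 and 1.39 ± 0.81). The 16 cohesin and separase genes had a median of 0.04, with 10 positive and 1 at an unadjusted p under 0.05: Sgo1, the protector of centromeric cohesion (1.29 ± 0.52), followed by Esco1 (0.70 ± 0.39). Of 13 tested mitotic entry kinases, phosphatases and inhibitors, 9 were positive (median 0.24) and 2 had an unadjusted p under 0.05. These were Cdkn1a, the p21 inhibitor of cyclin-dependent kinases, at 4.14, 2.08 and 0 FPKM in controls and at 18.8, 6.83, 4.66 and 5.04 FPKM in the Fth1-deleted group, and Chek1, the checkpoint kinase of replication stress, at 16.9, 19.3 and 19.3 FPKM in controls and at 29.8, 34.1, 35.7 and 24.2 FPKM in the Fth1-deleted group. In both, every Fth1-deleted library lay above every control (1.76 ± 0.71 and 0.70 ± 0.28).

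**Figure D5:**
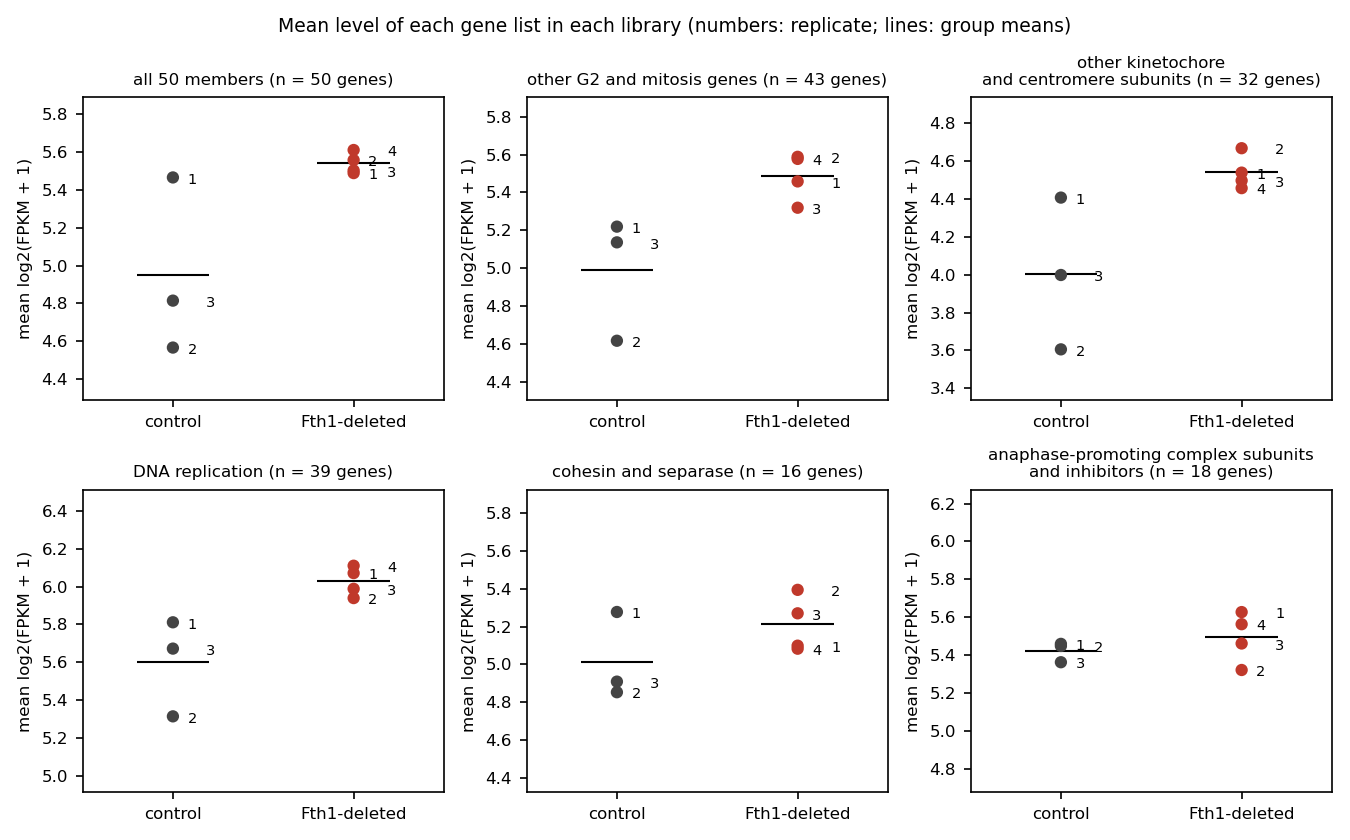
Mean log2(FPKM + 1) over the tested genes of each list (y axis, the same span in every panel) in each library; points are libraries with their replicate numbers and lines are group means. Control 1 lies at 5.47 in the panel of the 50 genes, beside the Fth1-deleted libraries at 5.49 to 5.61, and the panel of the anaphase-promoting complex shows overlapping groups.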

How the data were processed

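Polyadenylated RNA was sequenced in 7 libraries (3 control, 4 Fth1-deleted), made from 1 µg of RNA each with the NEBNext Ultra kit, per the labels. Alignment by the authors used HISAT2 2.0.4 and GRCm38, counting used HTSeq 0.9.1, and the deposited unit is FPKM, per the series text and the submitters' processing notes; annotation release and strand setting are not given in the sources used here. Identifiers were matched to GENCODE M21 (55480 of 55855). FPKM multiplied by mean transcript length gave whole reads within 0.05 for 98.8% to 99.4% of values under 50 reads, and so the counted reads. FPKM levels between genes depend on that length. Genes whose mean FPKM reached 1 (13948, all 50 members among them) were tested on log2(FPKM + 1) with limma 3.58.1 (trend) in R 4.3.3, two-sided, Benjamini-Hochberg over all tested genes, threshold 0.05. The script was tested on simulated data. Single values used an exact two-sided permutation test over 35 splits. Floors of 3 reads cover counting error only.

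The members, lists and tests were chosen with earlier results of these data known. Values in every library are given for members with an unadjusted p under 0.05, the smallest p of each role, and Mki67, Top2a, Cdk1, Ccnb1, Aurka, Plk1 and Bub3; other lists give members past the threshold or the 2 smallest p, with Fth1, Foxm1 and Mybl2 always. Alternatives were other pseudocounts, filters, scalings and limma settings, covariates for ribosomal RNA and Y-linked reads, limma-voom on recovered reads, the replicate block, and each library left out. Some marker genes are not reported here by name.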

Additional observations from a re-analysis of the deposited data

Results flagged for a closer look

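In the Fth1-deleted group, 5 of 51 genes checked had 1 library further from the others than Dixon's 95% critical value for 4 libraries allows; chance alone flags about 1 in 20 groups. Fth1-deleted 1 was far below the other 3 libraries in Ttk (9.79 FPKM) and Ect2 (11.8 FPKM). Fth1-deleted 4 was far above the others in Aurkb (141 FPKM) and far below them in Kif15 (37.6 FPKM) and Smc2 (33.2 FPKM). The 3 controls were too few for this check.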

How the results depend on the processing

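Over 21 alternatives, 41 of the 50 genes kept the direction of their difference and 9 changed it in at least 1; the latter had differences of -0.16 to 0.39. With only the 5 libraries of high ribosomal RNA, 1 gene passed the threshold instead of 0, 32 instead of 19 had an unadjusted p under 0.05, 45 instead of 12 had groups that did not overlap, and the median difference was 0.92 instead of 0.56. These 5 libraries hold control 2 as the only control, and the spread of a lone control cannot be estimated. The counts by threshold and by unadjusted p from this fit are therefore listed without a conclusion. The 45 genes without overlap are those in which control 2 lay below the whole Fth1-deleted range. With the ribosomal RNA share as a covariate the median was 1.13. The count of 19 genes with an unadjusted p under 0.05 was 10 without a trend. Whether the replicate numbers pair the libraries is not stated. Deviations of same-numbered libraries correlated by 0.0090, 0.0609 and -0.0370, which cannot settle it. With a replicate block the count was 7 and 0 of all tested genes passed the threshold. Leaving out 1 library at a time gave 10 to 31 genes with an unadjusted p under 0.05, 12 to 31 without overlap, and medians of 0.38 to 0.78. Groups of fewer libraries are apart more often, and shares over all tested genes are not given for these fits. In limma-voom on recovered reads the count was 19, and 5 of all tested genes passed the threshold. Fth1 passed it with a term for Y-linked reads (log2 difference -1.74, limma adjusted p = 0.0491; 0.0491 to 0.684 over all alternatives).

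Differences changed sign as follows. Prc1 was at -0.25 with the ribosomal RNA covariate, -0.0051 with the Y-linked term and -0.067 in high ribosomal RNA libraries. Nusap1 was at 0.0057 after quantile normalization, 0.46 with the ribosomal RNA covariate, 0.14 with the Y-linked term and 0.32 in high ribosomal RNA libraries. Kif20a was at -0.0004 with a pseudocount of 5, -0.0437 as TPM, -0.0355 with library weights and -0.0653 with the replicate block. Aurka was at -0.0611 as TPM and -0.0005 with the Y-linked term, and Anapc15 at -0.23 with the ribosomal RNA covariate. With 1 library left out, the ranges were -0.0513 to 0.74 for Kif2c, -0.0136 to 0.50 for Ncapg, -0.12 to 0.33 for Smc2, -0.31 to 0.012 for Pttg1, -0.20 to 0.47 for Ndc80, -0.20 to 0.25 for Nusap1, -0.36 to 0.50 for Kif20a and -0.15 to 0.095 for Aurka. The cause of these changes was not tested.

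Depth was ample: apart from the 0 of Cdc25c, the lowest count of any of the 50 genes in any library was 60 reads, in Ttk. The median coefficient of variation of the 50 genes between controls was 40.8%.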
